A study of Homo sapiens with 6 samples.

Results

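The NK-like homeobox genes encode transcription factors of the NK branch of the ANTP homeobox class and of families grouped with it (NKX, MSX, EMX, EN, VAX, BARX, BARHL, BSX, DBX, HMX, LBX, TLX, HHEX, HLX, VENTX and NANOG). The set was a list of 40 named genes, out of 20015 protein-coding genes of GENCODE v44 with a promoter in hg38, and all 40 were found in the annotation. For each gene, every peak overlapping 1500 bp on either side of any annotated transcript start was taken from the peak list of each library. The data came from 6 libraries of sequential ChIP (reChIP-seq) made from the parental line NCI-H661, an undifferentiated, SMARCA4-deficient non-small cell lung cancer line, with no genetic change or treatment added by the study in any of them. In K4–K119, chromatin was precipitated first for H3K4me3 and then for H2AK119ub. In K119–K4 the order was reversed, and in IgG–IgG a nonspecific antibody was used in both steps. Each condition had 2 biological replicates. The cells are 1 established line, and no library in which either antibody was followed by IgG was analysed here, so carry-over of the first mark into the second step cannot be told apart from co-occupancy. The lists hold peaks and no transcripts, so the line could not be checked against expressed marker genes.

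H3K4me3 is the histone mark of active and poised promoters, and H2AK119ub is deposited by Polycomb repressive complex 1. Promoters of homeobox genes that specify tissues are rich in CpG dinucleotides and are classical Polycomb targets in cells that do not express them. Many NK-like proteins carry an eh1 motif that recruits Groucho (TLE) co-repressors, and several fix the identity of a single organ or neuron type. In the lung, NKX2-1 (TTF-1) is the lineage factor of the distal airway epithelium and a diagnostic marker of adenocarcinoma.

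Depth could be judged only from reads in peaks. The lists held 1977756 and 918532 reads in K4–K119 replicates 1 and 2, 1580579 and 867173 in K119–K4 replicates 1 and 2, and 58980 and 65445 in IgG–IgG replicates 1 and 2. Between 65.9% and 96.1% of the peaks in a list held 2 reads, so a peak of 2 reads was the commonest entry in every library. At the promoters of the 40 genes the peaks held 8968 and 3089 reads with K4–K119, 3725 and 1395 reads with K119–K4, and 4 and 10 reads in IgG–IgG. A peak of any size was listed for 39 and 26 of the 40 genes with K4–K119 (78.2% and 59.9% of all protein-coding genes), for 28 and 29 with K119–K4 (68.5% and 64.7%) and for 2 and 5 with IgG–IgG (10.3% and 10.7%). A peak of at least 10 reads was listed for 34 and 23 genes in the K4–K119 replicates (70.6% and 41.6% of all genes), for 20 and 13 in the K119–K4 replicates (47% and 32.8%), and for none in either IgG–IgG replicate (0% of all genes). K4–K119 replicate 1 had the most genes with such a peak. Because libraries differ in total, raw reads of 1 gene compare libraries only together with those totals.

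A reciprocal region, called where the peaks of both replicates overlapped in K4–K119 and in K119–K4 and the resulting regions of the orders overlapped too, lay at 7 of the 40 genes (17.5%), against 4180 of 20015 genes (20.9%). Peaks entered this call with a deposited log2 fold over input above 1 and a false discovery rate below 0.05, and each overlap had to exceed 25% of both partners. The 7 genes were NKX1-1, NKX3-2, MSX1, VAX2, HMX1, TLX2 and HHEX, and in each the region held the canonical transcript start. Their share was close to that of all genes. The factor by which the deposited folds scale input differed between libraries. A fold of 1 on the log2 scale stood for 0.657 reads per input read in K4–K119 replicate 1 and for 7.90 in K4–K119 replicate 2. It stood for 9.48 and 7.24 in the K119–K4 replicates. The lists do not give the library totals behind this factor, so fold sizes were not compared between K4–K119 replicate 1 and the other libraries. With the folds of that library put on the scale of K4–K119 replicate 2, an alternative chosen after seeing the data, the same 7 genes had a reciprocal region (20.6% of all genes). Of the 7, NKX3-2, VAX2, TLX2 and HHEX also kept one with at least 1 input read per peak and with an overlap above 50% of both partners. NKX1-1, MSX1 and HMX1 did not in 1 or both of these. With a log2 fold above 2, NKX3-2, MSX1 and HHEX kept a region (6.27% of all genes), while VAX2, TLX2, NKX1-1 and HMX1 did not. A region reproduced in both K4–K119 replicates lay at 16 of the 40 genes (33% of all genes), and one reproduced in both K119–K4 replicates lay at 11 (30% of all genes). For 8 genes the reproducible region was found in K4–K119 and not in K119–K4 (11% of all genes), and for 3 genes in K119–K4 and not in K4–K119 (7.98% of all genes). No set test was run on these counts, since the genes are a chosen list.

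**Figure D1:**
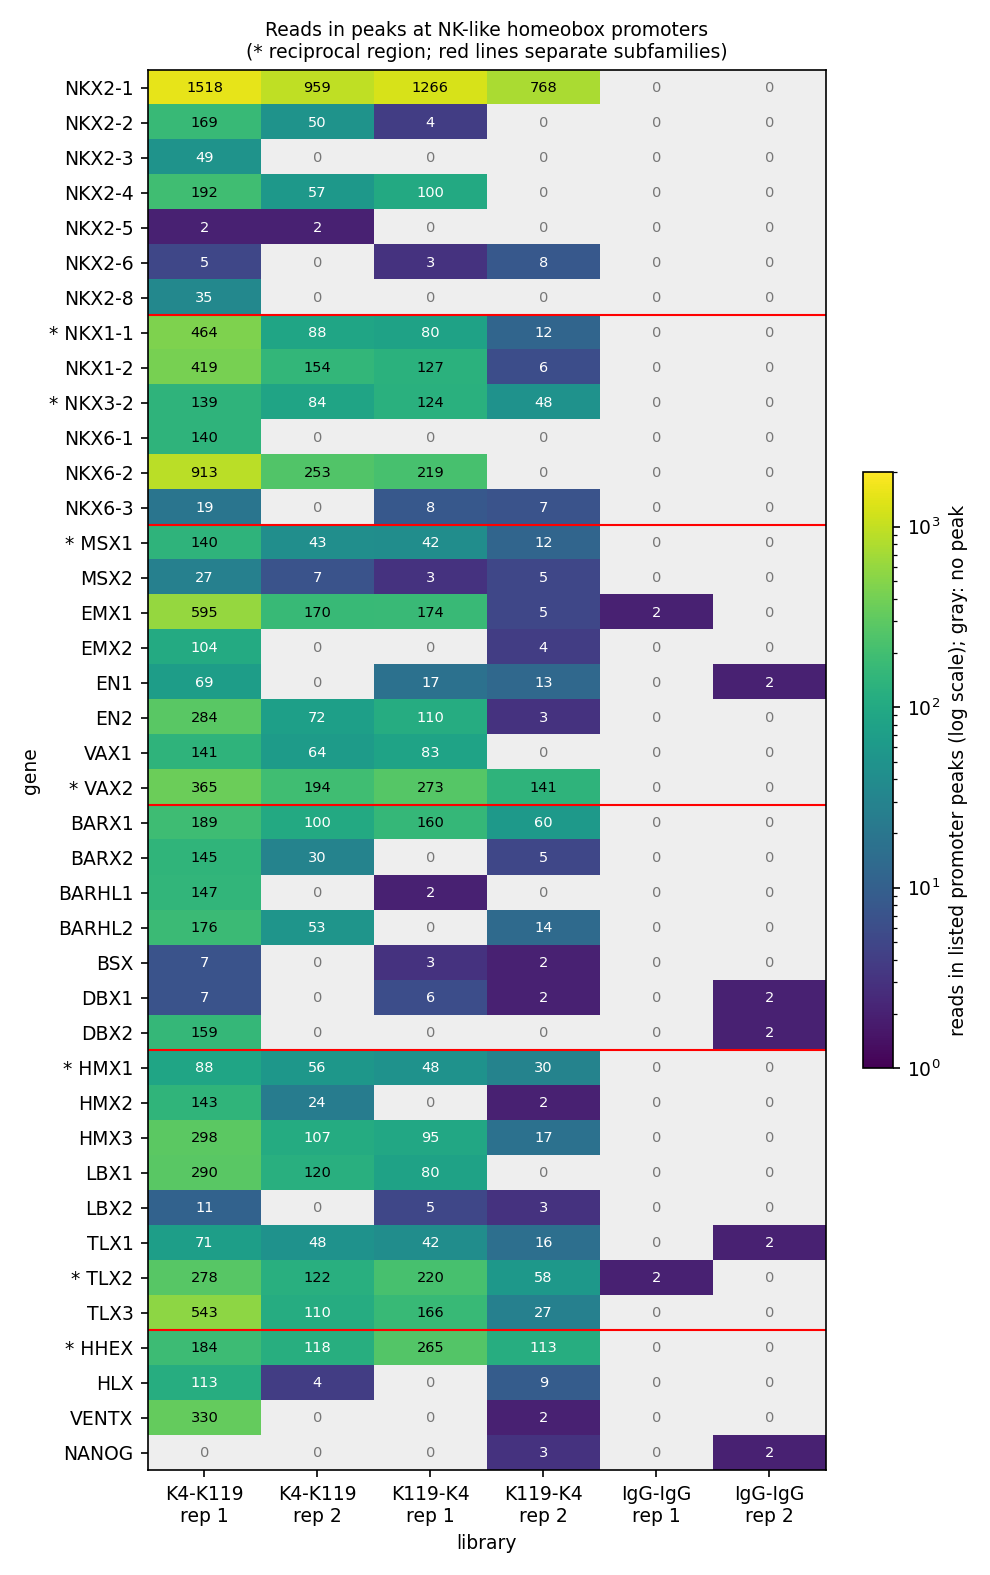
Reads in listed promoter peaks for each of the 40 genes (rows, by subfamily) in each of the 6 libraries (columns), printed in each cell and shaded on a log scale, with gray for no listed peak. NKX2-1 had the highest value in every reChIP library, between 768 and 1518 reads, while no IgG–IgG cell is above 2 reads; asterisks mark the 7 genes with a reciprocal region.

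IgG–IgG peaks were found at 7 of the 40 promoters (19.1% of all genes), EMX1 and TLX2 in replicate 1 and EN1, DBX1, DBX2, TLX1 and NANOG in replicate 2. Each held 2 reads with 0 input reads and was 100 or 200 bp wide. None covered the canonical start of its gene, and no gene had one in both replicates. Values of 2 to 4 reads in a reChIP library are therefore near the size of the IgG–IgG background. With 4 reChIP and 2 IgG–IgG libraries an exact permutation test cannot go below p = 0.0667 (one-sided), so no test of single genes against IgG–IgG was run.

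Sequences are shown for members at the ends of the range of signal: HHEX and TLX2, among the 3 genes with the most reads of those with a reciprocal region, DBX1 and LBX2, among the genes with fewest reads (NKX2-6, with 16 reads and 175 CpG within 1500 bp of its start, is not shown), and NKX2-1, added after its values were seen because it had the most reads of all. VAX2 and NKX2-5, chosen by the same rule, are named only. Each line is the 250 bases before the RefSeq start of the gene (GRCh38.p14, RefSeq), 5′ to 3′ on the strand of the gene, and capitals mark CG dinucleotides, the motif searched, which reads CG on both strands. They lie at chr10:92689705-92689954 (plus strand) for HHEX, chr2:74514200-74514449 (plus) for TLX2, chr11:20160476-20160725 (minus) for DBX1, chr2:74503317-74503566 (minus) for LBX2 and chr14:36520233-36520482 (minus) for NKX2-1.
HHEX: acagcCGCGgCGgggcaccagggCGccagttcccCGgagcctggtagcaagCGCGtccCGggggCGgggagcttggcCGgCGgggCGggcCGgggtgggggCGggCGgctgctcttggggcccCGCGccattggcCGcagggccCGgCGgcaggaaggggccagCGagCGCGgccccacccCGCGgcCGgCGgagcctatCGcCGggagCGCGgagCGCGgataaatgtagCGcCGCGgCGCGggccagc
TLX2: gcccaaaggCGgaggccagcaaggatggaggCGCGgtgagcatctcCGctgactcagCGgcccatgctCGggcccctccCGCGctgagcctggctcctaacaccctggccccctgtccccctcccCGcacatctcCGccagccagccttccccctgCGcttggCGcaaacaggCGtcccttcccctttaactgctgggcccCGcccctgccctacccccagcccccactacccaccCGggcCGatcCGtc
DBX1: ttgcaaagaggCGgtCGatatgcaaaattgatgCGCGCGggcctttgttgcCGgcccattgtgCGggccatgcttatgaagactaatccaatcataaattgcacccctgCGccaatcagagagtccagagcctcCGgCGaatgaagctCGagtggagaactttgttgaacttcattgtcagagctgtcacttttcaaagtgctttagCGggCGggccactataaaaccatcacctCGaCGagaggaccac
LBX2: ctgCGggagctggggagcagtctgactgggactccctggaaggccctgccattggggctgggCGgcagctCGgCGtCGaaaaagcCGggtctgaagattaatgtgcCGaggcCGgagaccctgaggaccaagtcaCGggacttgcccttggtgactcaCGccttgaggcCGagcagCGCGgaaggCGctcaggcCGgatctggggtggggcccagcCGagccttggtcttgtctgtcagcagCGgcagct
NKX2-1: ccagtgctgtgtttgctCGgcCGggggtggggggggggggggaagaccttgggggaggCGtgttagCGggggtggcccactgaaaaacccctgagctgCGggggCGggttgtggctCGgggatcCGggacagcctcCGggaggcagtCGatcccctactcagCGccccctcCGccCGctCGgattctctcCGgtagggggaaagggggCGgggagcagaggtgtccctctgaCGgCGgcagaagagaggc
The HHEX stretch held 38 CG, more than 96.3% of 15345 protein-coding promoters of the same length. The others lay near the median of 17, with 18 at NKX2-1, 17 at TLX2 and at LBX2, and 15 at DBX1. At least 1 CG was present in 96.9% of all promoters of this length. With a like number of CG in 250 bases, NKX2-1 and TLX2 were covered by strong peaks. DBX1 was covered by 5 reads in K4–K119 replicate 1 alone, and the LBX2 stretch by none. Within 1500 bp of the canonical start the counts differed, at 203 CpG for NKX2-1 and 226 for TLX2, against 150 for DBX1 and 155 for LBX2. The LBX2 stretch lies before its most upstream start and not before its canonical start. Of the 40 genes, 29 had an entry in this table.

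NKX2-1 (chr14:36516392-36521149, minus strand) had the most reads of the set in every reChIP library, but not the highest folds over input. Its promoter peaks held 1518 and 959 reads with K4–K119, 1266 and 768 reads with K119–K4, and no peak was listed in IgG–IgG. All 4 reChIP libraries were high, and the reads ranked above at least 99.9% of genes in each. The peak with the most reads covered the whole annotated gene in K4–K119 (both replicates) and K119–K4 replicate 2, and 93.5% of it in K119–K4 replicate 1. It extended over 6300 and 11000 bp in K4–K119 and over 5400 and 5100 bp in K119–K4. Nevertheless, NKX2-1 had no reciprocal region, because the 11000 bp peak of K4–K119 replicate 2 held 205 input reads and had a log2 fold of 0.24, under the threshold, whereas the fold was 5.44 for K4–K119 replicate 1, on its own input scale, and 1.51 and 1.44 for the K119–K4 replicates. The same peaks held 14.3 and 4.68 reads per input read with K4–K119, and 13.5 and 9.85 with K119–K4. K4–K119 replicate 2 was the lowest on this ratio too, which is not scaled for depth. These folds were near the medians over members with a peak of at least 10 reads in each library (5.50 and 1.02 for K4–K119, 1.45 and 1.63 for K119–K4), except in K4–K119 replicate 2, where 0.24 was the lowest of 23 members. The promoter windows also include a start of SFTA3 and of the antisense RNA NKX2-1-AS1, whose reads cannot be told apart from those of NKX2-1. This limit is not particular to NKX2-1. Windows of other members also include starts of noncoding genes, among them LINC01096 at NKX3-2 and an unnamed noncoding gene at VAX2.

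The input was itself high across this locus. The NKX2-1 peak held 16.8 input reads per kb in K4–K119 replicate 1, above 99.6% of the promoter peaks of at least 10 reads in that library (median 4.81). Over all reChIP peaks of 1 kb or more within 500 kb of the gene, the median was 18.2 input reads per kb (18 peaks), against 4.44 over the genome (31970 peaks). Leaving out peaks within 20 kb of the gene gave 17.9 (10 peaks). NKX2-8, at a distance of 62.4 kb, lies in the same window. At the other 38 genes the median ranged between 0.952 at MSX1 and 6.96 at NKX1-2. Copy number was not measured in these files, and its part in the reads at NKX2-1 was not tested. The deposited fold is a ratio to input within each library.

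The other NK2 genes were weaker and less reproducible, and none of the 7 had a reciprocal region. NKX2-2, a factor of ventral neural tube and pancreatic islet identity, had 169 and 50 reads with K4–K119, and 4 reads and no peak in the K119–K4 replicates. NKX2-4, a close relative of NKX2-1, had 192 and 57 reads with K4–K119, and 100 reads and no peak with K119–K4. At both genes each K4–K119 library had a peak and K119–K4 replicate 2 had none, and neither had an IgG–IgG peak. NKX2-3, needed for gut and spleen vessels, had 49 reads in K4–K119 replicate 1 and no peak in any other library. NKX2-8, the neighbor of NKX2-1, had 35 reads in the same library, with 29 input reads, and no peak elsewhere. NKX2-5, the cardiac factor, and NKX2-6 had no peak above 4 reads. The reproducible region of NKX2-5 in K4–K119 came from 1 peak of 2 reads in each replicate, and that of NKX2-6 in K119–K4 came from peaks of 2 and 3 reads, near the size of the IgG–IgG peaks.

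Among the NK1, NK3 and NK6 genes, 2 of 6 had a reciprocal region. NKX1-1, a factor studied mainly in the nervous system of model animals, had the widest region of the set, 6700 bp at chr4:1402201-1408900, which contains the whole gene. Its promoter peaks held 464 and 88 reads with K4–K119, 80 and 12 reads with K119–K4, and none in IgG–IgG. Both K4–K119 values were above both K119–K4 values, and the K119–K4 signal was split into separate peaks of 46 and 34 reads in replicate 1 and of 10 and 2 reads in replicate 2. The peak of 10 reads had 0 input reads, and the fold in K4–K119 replicate 2 was 1.02, close to the threshold. The region of NKX1-1 was lost with at least 1 input read per peak, with an overlap above 50% of both partners and without K119–K4 replicate 1. NKX3-2 (BAPX1), which acts in the formation of the axial skeleton, had 139 and 84 reads with K4–K119, 124 and 48 reads with K119–K4, and none in IgG–IgG. The orders overlapped at NKX3-2, and its region of 2200 bp (chr4:13543001-13545200) lay around the start. The log2 folds of its peaks were 6.14 and 2.09 for K4–K119 and 3.71 and 3.67 for K119–K4, from 23.2 and 16.8 reads per input read with K4–K119 and 62 and 46 with K119–K4. That ratio is not scaled for the depth of a library, which is unknown, so it does not rank the orders. The peaks held 1 to 6 input reads.

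NKX6-2 (GTX), a factor of oligodendrocyte and motor neuron development, was second to NKX2-1 in total reads. It had 913 and 253 reads with K4–K119, 219 reads in K119–K4 replicate 1 and no listed peak in K119–K4 replicate 2 or in IgG–IgG. Its log2 folds were 6.92, on the input scale of K4–K119 replicate 1, and 1.75 and 1.21 in the other libraries with a peak, so the absence of a reciprocal region rested on K119–K4 replicate 2. NKX1-2 had 419 and 154 reads with K4–K119, 127 and 6 reads with K119–K4, and none in IgG–IgG. Both K4–K119 values were again higher, but the folds in K4–K119 replicate 2 (0.59) and K119–K4 replicate 1 (0.28) were below the threshold. NKX6-1, an islet beta cell and motor neuron factor, had 140 reads in K4–K119 replicate 1 and no other peak. NKX6-3, expressed in the stomach, had 19 reads and no peak with K4–K119, and 8 and 7 reads with K119–K4. Its largest peak, of 14 reads in K4–K119 replicate 1, lay 3817 to 4516 bp downstream of the canonical start. None of its peaks covered that start.

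**Figure D2:**
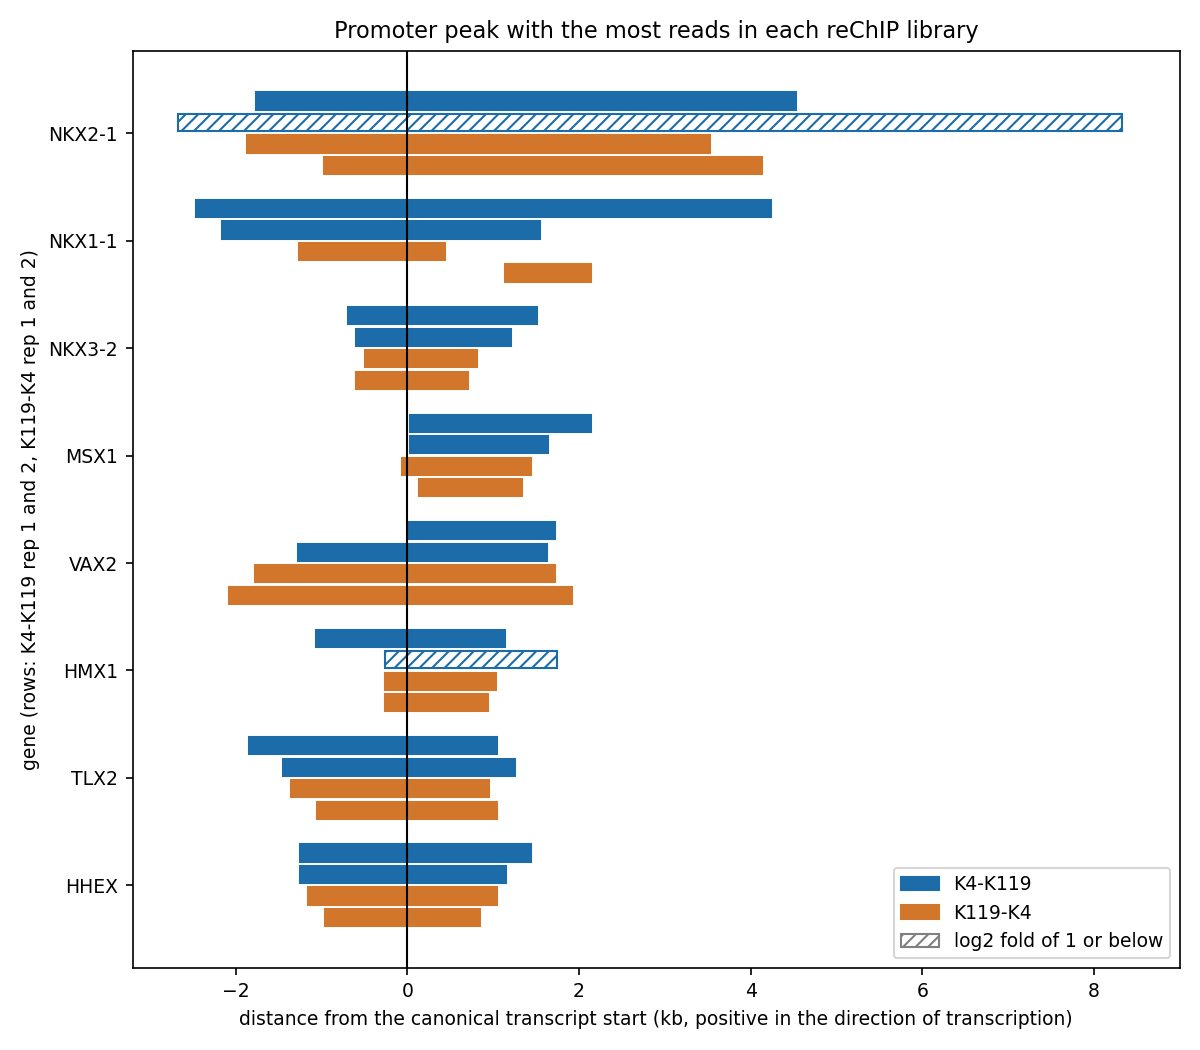
Position of the promoter peak with the most reads in each reChIP library, in kb from the canonical transcript start (horizontal axis, positive in the direction of transcription), for NKX2-1 and the 7 genes with a reciprocal region; each gene has 4 rows, K4–K119 replicates 1 and 2 above K119–K4 replicates 1 and 2. Hatched bars have a log2 fold of 1 or below, as at NKX2-1 (11000 bp) and HMX1 (2000 bp) in K4–K119 replicate 2.

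Among the MSX, EMX, EN and VAX genes, 2 of 8 had a reciprocal region. MSX1, a factor of limb, tooth and craniofacial mesenchyme, had 140 and 43 reads with K4–K119, 42 and 12 reads with K119–K4, and none in IgG–IgG. Its orders were separated by 1 read, with the lower K4–K119 library above the higher K119–K4 library. The strongest peaks began between 64 bp before and 136 bp after the start and ran downstream, and the region covered 2200 bp (chr4:4859601-4861800). The main peaks held 2 and 2 input reads with K4–K119 and 1 and 0 with K119–K4, with folds of 7.59 and 2.45 for K4–K119 and 2.96 and 10.08 for K119–K4, the last of these set by 0 input reads. With at least 1 input read per peak the region of MSX1 was lost. VAX2, which patterns the ventral retina, had 365 and 194 reads with K4–K119, 273 and 141 reads with K119–K4, and none in IgG–IgG. The orders overlapped at VAX2, and its region of 4000 bp (chr2:70898501-70902500) reached both sides of the start. Its homolog VAX1 had 141 and 64 reads with K4–K119, and 83 reads and no peak with K119–K4, with folds of 0.70 for K4–K119 replicate 2 and 0.67 for K119–K4 replicate 1.

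EMX1, a factor of the developing cerebral cortex, had 595 and 170 reads with K4–K119, 174 and 5 reads with K119–K4, and 2 reads and no peak in IgG–IgG. Reproducible regions were called in both orders, but they did not overlap each other. The kept K119–K4 peaks in its windows held 2 to 4 reads with 0 input reads, near the size of the IgG–IgG peaks. Its K119–K4 region was lost with at least 10 reads per peak. With the canonical start alone, EMX1 had no reproducible region in either order. The peaks over its start had folds of 0.31 for K4–K119 replicate 2 and 0.83 for K119–K4 replicate 1 and were not kept. EMX2 had 104 reads and no peak with K4–K119, and no peak and 4 reads with K119–K4. EN2, a factor of the midbrain and cerebellum, had 284 and 72 reads with K4–K119, and 110 and 3 reads with K119–K4. Its homolog EN1 had 69 reads and no peak with K4–K119, 17 and 13 reads with K119–K4, and no peak and 2 reads in IgG–IgG. MSX2 had 27 and 7 reads with K4–K119, and 3 and 5 reads with K119–K4. Of each of these pairs of homologs, MSX1, EMX1, EN2 and VAX2 had more reads in every reChIP library, except that EN1 had more than EN2 in K119–K4 replicate 2.

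None of the 7 BARX, BARHL, BSX and DBX genes had a reciprocal region. BARX1, a factor of stomach mesenchyme, missed it by 1 library, at 189 and 100 reads with K4–K119, 160 and 60 reads with K119–K4, and none in IgG–IgG. Its main peak had a fold of 5.66 and 1.13 for K4–K119 and of 1.62 and 0.83 for K119–K4, the last of these under the threshold. These were 16.6 and 8.67 reads per input read with K4–K119, and 14.5 and 6.44 with K119–K4. BARX2 had 145 and 30 reads with K4–K119, and no peak and 5 reads with K119–K4. BARHL2, a factor of retinal and spinal neurons, had 176 and 53 reads with K4–K119, and no peak and 14 reads with K119–K4. Both genes were higher in each K4–K119 library than in either K119–K4 library. The main peak of BARHL1 had 144 reads in K4–K119 replicate 1. In K119–K4 replicate 1 the gene had a peak of 2 reads, which did not overlap the main peak. DBX2, a factor of spinal interneurons, had 159 reads in K4–K119 replicate 1, no peak in the other reChIP libraries, and 2 reads in IgG–IgG replicate 2. BSX, a hypothalamic factor, and DBX1 had at most 7 reads in any library.

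Among the HMX, LBX and TLX genes, 2 of 8 had a reciprocal region. HMX1, a factor of the eye, ear and sensory ganglia, had 88 and 56 reads with K4–K119, 48 and 30 reads with K119–K4, and none in IgG–IgG. Both K4–K119 values were higher, but after scaling to the promoter reads of each library the orders overlapped. Its region of 2300 bp (chr4:8870701-8873000) rested on a peak of 9 reads in K4–K119 replicate 2 (fold 1.19), since the peak of 47 reads had a fold of 0.99. It was lost with at least 10 reads per peak, with a false discovery rate below 0.01, with an overlap above 50% of both partners and without K4–K119 replicate 1. TLX2 (HOX11L1), a factor of enteric neurons, had 278 and 122 reads with K4–K119, 220 and 58 reads with K119–K4, and 2 reads and no peak in IgG–IgG. The orders overlapped at TLX2, and its region covered 3100 bp (chr2:74512601-74515700). The folds of its main peaks were 6.24 (on the input scale of replicate 1) and 1.49 for K4–K119 and 2.94 and 1.63 for K119–K4.

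HMX3 and HMX2, inner ear factors 12.2 kb apart on chromosome 10, differed in their signal. HMX3 had 298 and 107 reads with K4–K119, 95 and 17 reads with K119–K4, and none in IgG–IgG. HMX2 had 143 and 24 reads with K4–K119, and no peak and 2 reads with K119–K4. HMX3 was the higher in all 4 reChIP libraries, and it missed a reciprocal region through a fold of 0.95 in K4–K119 replicate 2. TLX3, a factor of glutamatergic sensory neurons, had 543 and 110 reads with K4–K119, and 166 and 27 reads with K119–K4, with a fold of 0.90 in the last of these. TLX1 (HOX11), which is required for the spleen and is activated in T cell leukemia, had 71 and 48 reads with K4–K119, 42 and 16 reads with K119–K4, and no peak and 2 reads in IgG–IgG. LBX1, a factor of migrating muscle precursors, had 290 and 120 reads with K4–K119, and 80 reads and no peak with K119–K4. In contrast, LBX2 had no peak above 6 reads, although its canonical start lies 14.8 kb from that of TLX2 and its windows include a start of PCGF1, a Polycomb subunit gene.

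Of the remaining 4 genes, HHEX alone had a reciprocal region. HHEX, a factor of liver, thyroid and blood development, had 184 and 118 reads with K4–K119, 265 and 113 reads with K119–K4, and none in IgG–IgG. The orders overlapped in raw reads. Scaled to the promoter reads of each library, HHEX had 95.8 and 157 RPM (reads per 1000000 promoter reads) with K4–K119, against 184 and 206 RPM with K119–K4, so both K119–K4 libraries were higher. Its region covered 2700 bp (chr10:92688701-92691400), and its peak had folds of 6.31 (on the input scale of replicate 1) and 2.29 for K4–K119, and of 3.48 and 2.91 for K119–K4, each above 2. VENTX had 330 reads in K4–K119 replicate 1, 2 reads in K119–K4 replicate 2 and no peak in the other libraries. HLX, a factor of gut mesenchyme and blood cells, had 113 and 4 reads with K4–K119, and no peak and 9 reads with K119–K4. NANOG, the pluripotency factor, had no peak with K4–K119 and no peak and 3 reads with K119–K4, against no peak and 2 reads in IgG–IgG. Its promoter was thus at the level of the IgG–IgG background in all reChIP libraries.

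Grouped by where a peak of at least 10 reads was listed, 12 of the 40 genes had one in all 4 reChIP libraries (28.8% of all genes), 10 in K4–K119 replicate 1 alone (19.2%), 7 in all but K119–K4 replicate 2 (8.86%), 3 in both K4–K119 libraries and no K119–K4 library (3.44%) and 6 in none (29.1%). EN1 and BARHL2 had other patterns. The 12 genes were NKX2-1, NKX1-1, NKX3-2, MSX1, VAX2, BARX1, HMX1, HMX3, TLX1, TLX2, TLX3 and HHEX. The 6 genes in no library were NKX2-5, NKX2-6, BSX, DBX1, LBX2 and NANOG, with 3 to 19 reads over the reChIP libraries. The 10 genes in K4–K119 replicate 1 alone were NKX2-3, NKX2-8, NKX6-1, NKX6-3, MSX2, EMX2, BARHL1, DBX2, HLX and VENTX. Their signal was not repeated in the second K4–K119 library, whose list holds fewer reads. Input was also scaled differently, as a log2 fold of 1 stood for 0.657 reads per input read in replicate 1 and 7.90 in replicate 2. At NKX2-8 a peak of 25 reads on 16 input reads was listed in replicate 1. Whether the input scale affected which peaks were listed was not tested.

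Where such peaks were listed, they tended to be wide and not dense. The median width was 2550 and 2300 bp in K4–K119 and 2250 and 1200 bp in K119–K4, against 1600, 1600, 1400 and 1200 bp over all genes with a promoter peak of at least 10 reads in the same 4 libraries. The median reads per kb of peak were 61.4 and 35.9 for K4–K119 and 43.9 and 23.3 for K119–K4, against 54, 40, 68 and 42.1 over all genes. Peaks of the members were thus wider than the median gene in 3 libraries and less dense in 3, the exceptions being the width in K119–K4 replicate 2 and the density in K4–K119 replicate 1. The fold exceeded 1 for 34 of 34 members with such a peak in K4–K119 replicate 1 (100% of all genes), but for 13 of 23 in replicate 2 (69.7% of all genes). In K119–K4 it exceeded 1 for 15 of 20 (82.9%) and 10 of 13 (79.7%). The fold filter therefore removed no such peak in K4–K119 replicate 1, where it asked for 0.657 reads per input read, against 7.90 in replicate 2. On the input scale of replicate 2, 31 of the 34 members would have passed in replicate 1. These counts cover only members with a peak of at least 10 reads and are a description.

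The order of the antibodies was compared next. To set libraries side by side, the reads of a gene were divided by all reads in promoter peaks of that library and given per 1000000 (RPM). On this scale both K4–K119 libraries were above both K119–K4 libraries at 18 of the 40 genes (18.4% of all genes), and both K119–K4 libraries were above both K4–K119 libraries at 2, HHEX and DBX1 (14.6% of all genes). No floor on reads was set for these counts, and a gene without a listed peak counted as having no reads. Input was scaled differently in K4–K119 replicate 1, and the effect of this on which peaks were listed was not tested. DBX1 had 7 reads and no peak with K4–K119, and 6 and 2 reads with K119–K4, in peaks of 2 to 5 reads. NKX2-5, among the 18, had 2 reads in each K4–K119 library. Such values are near the size of the IgG–IgG peaks. The mean was higher in K4–K119 at 32 of 40 genes (52.2% of all genes). The members took 0.467% and 0.411% of the promoter reads of the K4–K119 replicates, and 0.259% and 0.255% of those of the K119–K4 replicates. These shares include NKX2-1, at 790 and 1275 RPM with K4–K119 and 880 and 1403 RPM with K119–K4. The 18 genes included NKX1-1, NKX1-2, NKX6-2, EMX1, HMX3, LBX1 and TLX3.

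For single genes this difference did not pass the test. In edgeR's quasi-likelihood test over 12722 genes with a mean of at least 10 reads, no gene was called in either direction at a Benjamini-Hochberg adjusted p below 0.05 (0% of genes tested), and 1003 genes had an unadjusted p below 0.05. Of the 40 members 32 entered the test, some of them through K4–K119 replicate 1 alone, and 3 had an unadjusted p below 0.05, all higher in K4–K119. NKX2-2 had 88 and 66.5 RPM with K4–K119, against 2.78 and 0 in K119–K4, a log2 fold change of 5.41 ± 1.49 (SE) with an edgeR adjusted p of 0.53. NKX1-1 had 242 and 117 RPM with K4–K119, against 55.6 and 21.9 in K119–K4, a log2 fold change of 2.13 ± 0.68 (SE) with an edgeR adjusted p of 0.569. HMX3 had 155 and 142 RPM with K4–K119, against 66 and 31.1 in K119–K4, a log2 fold change of 1.53 ± 0.50 (SE) with an edgeR adjusted p of 0.575. The groups did not overlap at these 3 genes. DESeq2 called 310 genes higher and 316 lower, and among the members these same 3 as higher, with DESeq2 adjusted p-values of 0.000925 for NKX2-2, 0.0227 for NKX1-1 and 0.0358 for HMX3. With edgeR and without K119–K4 replicate 1, 635 genes, 9 of them members, were called higher in K4–K119, and the groups then had 2 and 1 libraries.

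At the other genes with a reciprocal region the edgeR log2 fold changes were smaller. HHEX was at -0.69 ± 0.27 (SE, adjusted p = 0.638 by edgeR), and MSX1, with 72.9 and 57.2 RPM with K4–K119 against 29.2 and 21.9 in K119–K4, at 1.30 ± 0.70. HMX1 was at 0.40 ± 0.63, TLX2 at 0.18 ± 0.29, NKX3-2 at 0.020 ± 0.36 and VAX2 at -0.041 ± 0.23. NKX2-1, without such a region, was at -0.19 ± 0.40. None of these was called. The sign at VAX2 changed with the scaling of the libraries, and the signs at NKX2-1, NKX3-2, VAX2 and TLX2 changed when single libraries were left out. Over the 32 members tested the median log2 fold change was 1.71, against 0.28 over all genes tested. A gene that passed through K4–K119 alone had to be higher there. Among genes with a listed peak in all 4 reChIP libraries the medians were 1.06 over 16 members and 0.073 over 8129 genes.

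**Figure D3:**
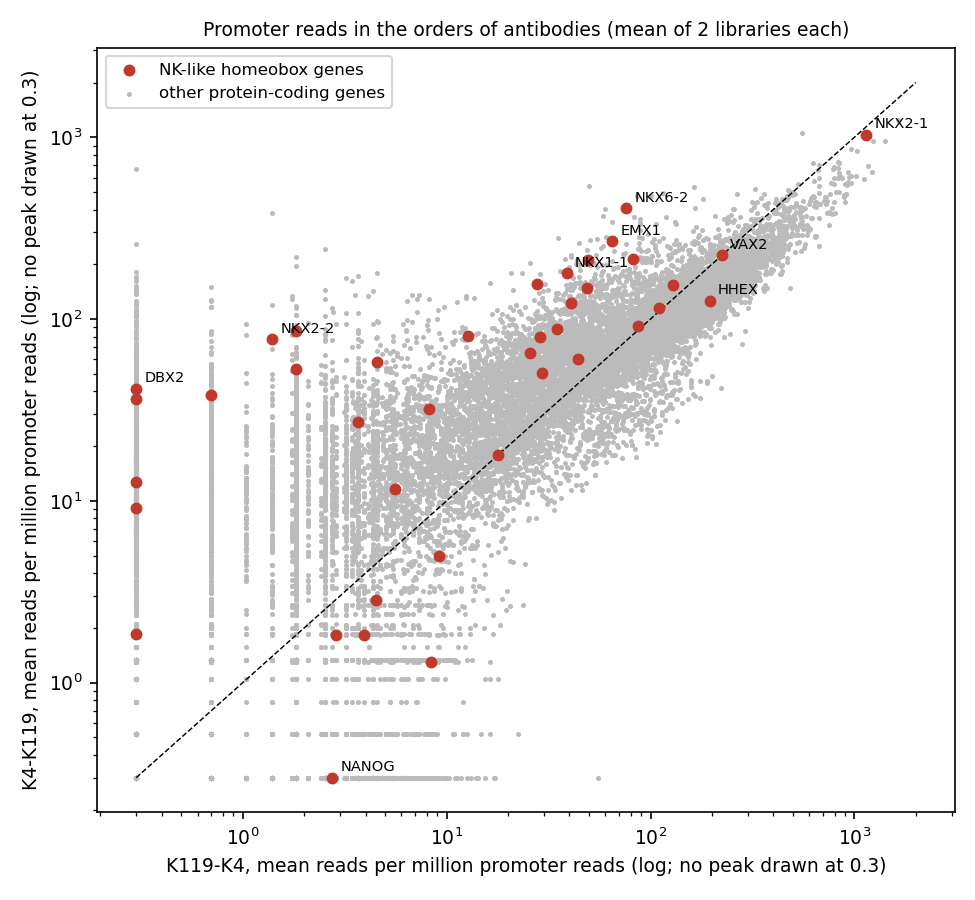
Mean reads per 1000000 promoter reads over 2 replicates in K119–K4 (horizontal axis) and K4–K119 (vertical axis), both on log scales, for the 40 members in red and all other protein-coding genes in gray; genes with no listed peak are drawn at 0.3. The mean was higher in K4–K119, above the dashed line of equality, at 32 members, while HHEX lies below it and VAX2 on it.

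The promoters of the set were rich in CpG. Within 1500 bp of the canonical start they held a median of 200 CpG, between 43 at NANOG and 424 at NKX6-2, against a median of 115 over all protein-coding genes. All genes with a reciprocal region had a median of 171, and the 7 members with one had a median of 226. Of the 40 genes 20 fell into the upper decile of CpG count, and all 20 had a peak of at least 10 reads in K4–K119 replicate 1 (98.1% of all genes in that decile). A reciprocal region was found at 5 of these 20 genes (58.2% of all genes in that decile), and over the 2 upper deciles at 7 of 27 (52.4%). The difference from all genes of those deciles was not tested. None of the 13 members in lower deciles had one (13% of all genes in those deciles).

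Genes of related function were set beside the members. Of the 6 Groucho co-repressor genes, partners of many NK-like proteins, 3 had a reciprocal region (20.9% of all genes): TLE1, TLE3 and TLE5. TLE3 had 652 and 387 reads with K4–K119, 964 and 427 reads with K119–K4, and 2 reads and no peak in IgG–IgG. TLE1 had 326 and 234 reads with K4–K119, 457 and 253 reads with K119–K4, and no peak and 2 reads in IgG–IgG. TLE5 had 331 and 163 reads with K4–K119, 520 and 207 reads with K119–K4, and none in IgG–IgG. The orders overlapped in raw reads at all 3 genes. Scaled to promoter reads, both K119–K4 libraries were above both K4–K119 libraries, with 339 and 515 RPM with K4–K119 against 670 and 780 RPM with K119–K4 at TLE3, 170 and 311 RPM with K4–K119 against 318 and 462 RPM with K119–K4 at TLE1, and 172 and 217 RPM with K4–K119 against 361 and 378 RPM with K119–K4 at TLE5. Of 12 lung genes bound by NKX2-1 or its partners, 1 had a region, ABCA3, a surfactant lipid transporter gene, at 178 and 73 reads with K4–K119, 184 and 68 reads with K119–K4, and no peak and 2 reads in IgG–IgG. Of 10 pluripotency partners of NANOG, 1 had a region, SOX2, at 198 and 149 reads with K4–K119, 202 and 139 reads with K119–K4, and none in IgG–IgG. None of these genes was called in the order test.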

How the data were processed

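The condition and replicate of each of the 6 libraries came from its label, and none was left out. Per the submitters' processing notes, reads were processed with Trim Galore 0.6.6, BWA 0.7.13, SAMtools 1.9, Picard 2.6.0 and deepTools 3.5.0 on hg38. The authors called peaks in each replicate against matched genomic input with EPIC2 0.0.52 (bins of 100 bp, 1 gap, fragments of 147 bp). The deposited count of reads and of input reads in each peak was not scaled by the authors. The p-value and FDR in the deposited lists compare a peak with its own input. The log2 fold in them, deposited by the authors, is a ratio to scaled input, and the deposited score is derived from it by the authors' caller. Reads outside peaks are not in the lists, so sequencing depth is unknown and values compare reads in called peaks.

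From these lists, peaks on chromosomes 1 to 22, X and Y entered the regions if their FDR was below 0.05 and their log2 fold above 1, without the ENCODE blacklist, which was not used here. Replicates and then orders were overlapped at more than 25% of both. Reads per gene were summed over all listed peaks within 1500 bp of any start, without the 18 Y copies of pseudoautosomal genes, and tested over the 4 reChIP libraries with edgeR 4.0.16 (TMM, mean of at least 10 reads); DESeq2 1.42.0 was an alternative. Log2 fold changes are K4–K119 over K119–K4. Their SE was derived from the edgeR test, as the absolute log2 fold change divided by the square root of the F statistic. Same-numbered replicates were not treated as pairs. Members and lists were chosen with earlier results of these data known. Values per library are given for members with a reciprocal region or a peak of at least 10 reads, and others by range. Log2 fold changes are printed for the genes with a region, the genes at unadjusted p below 0.05 and NKX2-1. Scripts were tested on simulated data. R 4.3.3, Python 3.11.15, numpy 2.4.6, pandas 2.3.3 and matplotlib 3.10.9 were used.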

Additional observations from a re-analysis of the deposited data

How the results depend on the processing

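A log2 fold above 2 left reciprocal regions at 3 members (6.27% of all genes) and reproducible regions at 6 with K4–K119 (13.7%) and 6 with K119–K4 (15.3%), and no filter on the fold gave reciprocal regions at 12 (30.2%). Reproducible K119–K4 regions lay at 7 members with an overlap above 50% of both (24.5%) and at 7 with at least 1 input read per peak (23.7%). IgG–IgG peaks lay at 0 members with at least 10 reads (0%) and at 0 with at least 1 input read per peak (0.6%). With single libraries left out, where the remaining replicate stands alone for its order, reciprocal regions lay at 6 to 12 members (12, and 27% of all genes, without K119–K4 replicate 2), reproducible K4–K119 regions at 16 to 39 (39, and 78.2%, without replicate 2), reproducible K119–K4 regions at 11 to 28 (28, and 61.4%, without replicate 1) and IgG–IgG peaks at 2 to 5 (10.3% and 10.7%). With the folds of K4–K119 replicate 1 on the input scale of replicate 2, added after seeing the data, reproducible K4–K119 regions lay at 15 members (30.5%). In the order test DESeq2 called 310 genes higher and 316 lower in K4–K119, with 3 members higher, and edgeR without a filter on reads called 3 genes higher. Leaving out single libraries gave 0 to 635 genes higher and 0 to 1 lower, with 0 to 9 members higher and 0 to 0 lower; the calls came without K119–K4 replicate 1. The cause was not tested.

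The log2 fold change of VAX2 changed sign with DESeq2 (0.058), RLE size factors (0.052), library size alone (0.0048), a listed peak in all 4 libraries (0.071) and peaks with a fold above 1 only (0.033). That of NKX3-2 was -0.041 without a filter on reads, and that of HMX1 was -0.57 with peaks of a fold above 1 only. With single libraries left out, NKX2-1 ranged between -0.51 and 0.090, NKX3-2 between -0.26 and 0.27, VAX2 between -0.21 and 0.13 and TLX2 between -0.12 and 0.53. The replicate block called 0 genes, as did the test without it, and 0 members. Over 12722 genes the replicate differences of the orders correlated at r = 0.0146. This value cannot tell whether same-numbered libraries were made together, which the labels do not state. Depth limits genes with peaks of 2 to 4 reads, close in size to IgG–IgG peaks.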
